A study of Bombyx mori with 12 samples.

Results

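Juvenile hormone esterase (JHE) and 5 related esterases of the silkworm Bombyx mori, named JHE-r1, JHE-r2, JHE-r3, JHE-r4A and JHE-r5AL on the array, were followed across larval tissues. They were chosen by name: every probe whose sequence name, without a _cds ending, was one of these 6 names was taken, which gave 22 of the 42564 probes that are not controls. JHE, JHE-r1, JHE-r2, JHE-r3 and JHE-r5AL had 4 probes each and JHE-r4A had 2.

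Juvenile hormone is the sesquiterpenoid made by the corpora allata that keeps insect larvae larval through their moults. It carries a methyl ester, which juvenile hormone esterase hydrolyses to the hormone acid, and an epoxide, which juvenile hormone epoxide hydrolases open. In moths the fat body is a known source of the esterase that circulates in the haemolymph, where juvenile hormone binding proteins carry the hormone. The array names the 5 other sequences as relatives of the esterase, and the labels do not say what each of them hydrolyses.

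The study profiled a commercial hybrid, Kinsyu x Showa, reared at 25 °C on mulberry leaves, on 12 arrays of 1 colour. The complex of corpora cardiaca and corpora allata (CC-CA), a gland complex behind the brain that makes juvenile hormone and releases neurohormones, was sampled on day 4 of the 5th instar (1 array) and on day 2 of the 4th instar (2 arrays, described as independent experiments). Day 2 of the 4th instar also supplied salivary gland, Malpighian tubule, epidermis, midgut, fat body, brain and prothoracic gland, with 1 array each. Ovary and testis, again with 1 array each, were taken late in the 5th instar, on its day 10, when larvae had been wandering for 3 days. The labels name no transgene and no treatment. Whole organs were dissected, so fewer cells of a type and less RNA per cell cannot be told apart, and testis and ovary differ from the other tissues in stage as well. How many larvae were pooled for an array is not stated in the labels used here.

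Levels are log2 of the processed signal relative to the 75th percentile of the same array, so 0 is that percentile. A signal that the scanner software did not mark as well above background is called dim. Levels of different probes were not set against each other, because probes differ in brightness. Each name was represented by the probe with the highest mean level over all 12 arrays, among those well above background in some group, and the others were compared with it in pattern. For JHE-r1 and JHE-r2 that mean consists mostly of dim signals. The 75th percentile of the processed signal was lowest in fat body (1402) and highest in ovary (5827), and between 60.4% and 78.6% of the spots were well above background. The number of arrays limits the precision. The labelled tissues were checked with marker genes. The corpora allata gene BmJHAMT, which encodes the methyltransferase that completes juvenile hormone in these glands, was well above background in the CC-CA of both stages and in no tissue. Adipokinetic hormone (AKH-1, AKH-2) was highest in the 5th instar CC-CA and next in the 4th instar CC-CA, eclosion hormone (EH) and corazonin were highest in brain, the adipokinetic hormone receptor AKHR in fat body and the diuretic hormone receptor DHR in Malpighian tubule. Of 143 cuticular protein names with a measured signal, 63 were highest in epidermis.

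The 6 esterases fell into 3 kinds by how widely they were detected. By the representative probe, JHE-r4A was well above background in all 11 groups, JHE and JHE-r5AL in 10 each, JHE-r3 in 5, and JHE-r1 and JHE-r2 in 1 each. Counting any probe of a name, JHE was well above background in 11 groups and JHE-r2 in 2, with the other 4 counts unchanged. The number of the 22 probes that were well above background was 9 in the 5th instar CC-CA and 8 and 10 in the 4th instar CC-CA. It was 13 in prothoracic gland, epidermis and testis, 12 in salivary gland, 8 in midgut and ovary, 7 in fat body and Malpighian tubule, and 4 in brain. On every array the share of the 22 was below that of all probes. It was 59.1% against 63.7% in prothoracic gland, 59.1% against 69.1% in epidermis and 59.1% against 78.5% in testis. In fat body it was 31.8% against 60.2%, and in brain 18.2% against 66.6%. No probe was saturated.

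**Figure D1:**
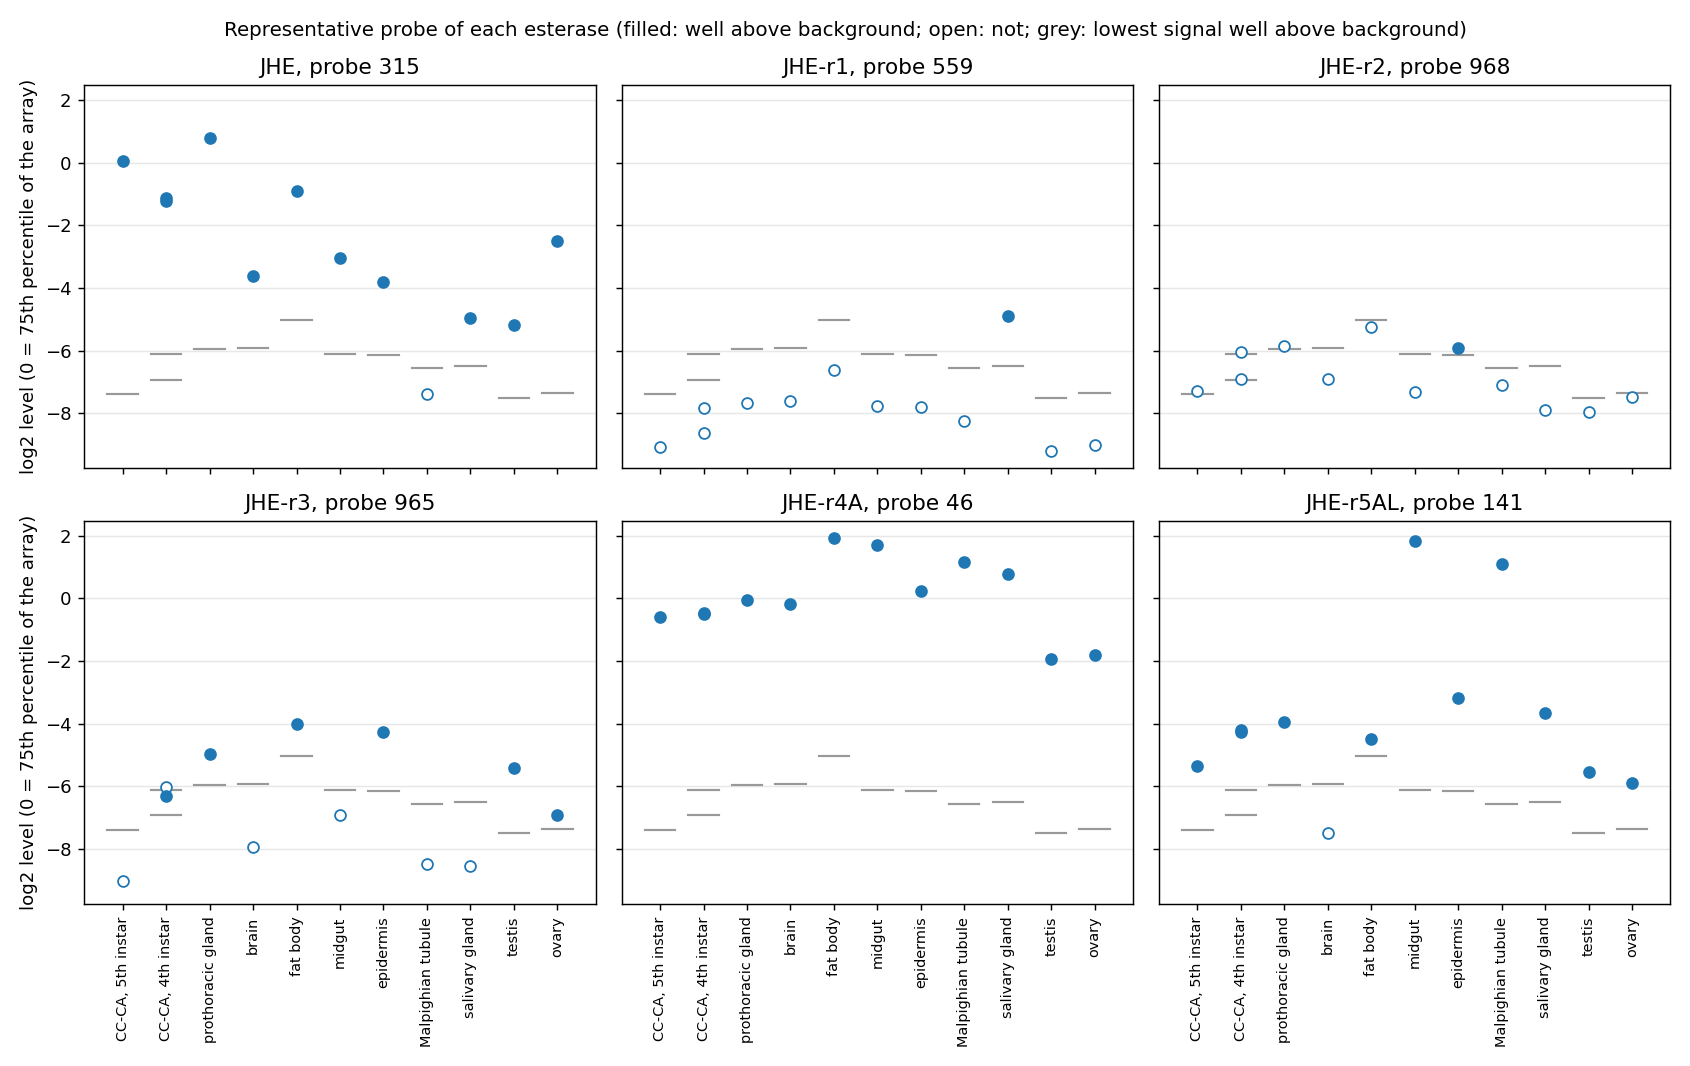
Log2 level of the representative probe of each esterase by group, 1 point per array, with 2 arrays for the 4th instar CC-CA and 1 for every other group; filled points are well above background, open points are dim, and grey lines are the lowest signal well above background on each array. JHE-r4A is filled in all 11 groups, JHE-r5AL stands apart in midgut and Malpighian tubule, and JHE-r1 is filled in salivary gland alone.

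JHE, the enzyme that cleaves the hormone's ester, was highest in prothoracic gland, the gland that makes the moulting hormone, and next in the 5th instar CC-CA. Its level was 0.05 in the 5th instar CC-CA and -1.23 and -1.13 in the 4th instar CC-CA. It was 0.78 in prothoracic gland, -0.92 in fat body, -2.50 in ovary, -3.06 in midgut, -3.63 in brain, -3.81 in epidermis, -4.95 in salivary gland and -5.19 in testis. In Malpighian tubule the spot was dim, at -7.37. The CC-CA of both stages, prothoracic gland and fat body thus lay above all other groups, and the 2 replicate arrays differed by less than any step between them and the neighbouring groups.

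The 4th instar CC-CA was compared with each tissue in a limma fit over all 11 groups, in which only the 4th instar CC-CA pair carried replicate error. The fit thus gives each unreplicated array the spread of that pair. The arrays lay on 3 slides. The 4th instar CC-CA replicates shared a slide with fat body, brain and prothoracic gland (replicate 1) and with salivary gland, midgut and the 5th instar CC-CA (replicate 2). Ovary, testis, Malpighian tubule and epidermis lay on a slide without CC-CA, so for these 4 tissues the slide and the tissue cannot be told apart. A gene was called where the Benjamini-Hochberg adjusted p, over all 38086 probes tested, was below 0.05. For JHE, 7 of the 9 tissues were called, where 24.1% of all probe comparisons of the 4th instar CC-CA with the 9 tissues were called. JHE was lower in the 4th instar CC-CA than in prothoracic gland (log2 difference -1.96 ± 0.48 SE, 3.90-fold, limma adjusted p = 0.0226). It was higher than in brain by 2.45 (5.46-fold, adjusted p = 0.0063), than in midgut by 1.87 (3.67-fold, adjusted p = 0.0189) and than in epidermis by 2.63 (6.17-fold, adjusted p = 0.00525).

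Larger differences separated the 4th instar CC-CA from salivary gland (3.77, 13.6-fold, adjusted p = 0.000482) and testis (4.00, 16.1-fold, adjusted p = 0.000226). For 2 tissues the difference did not pass. Against fat body, the known source of circulating esterase, it was -0.26, with a 95% interval of the fit from -1.36 to 0.83 (adjusted p = 0.723). Against ovary it was 1.32, with an interval from 0.22 to 2.42 (adjusted p = 0.0987). The calls against prothoracic gland, midgut and epidermis were lost with quantile normalization, at adjusted p = 0.0612, 0.0585 and 0.0514. Those against brain and midgut were lost with the mean over all probes of the name, at adjusted p = 0.0601 and 0.138. Over the 9 alternatives with a test, adjusted p ran from 0.000312 to 0.0612 against prothoracic gland, from 3.42e-06 to 0.0601 against brain, from 0.000457 to 0.138 against midgut and from 5.56e-07 to 0.0514 against epidermis.

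The Malpighian tubule value of JHE depended on the probe. Probe 315, which represents the gene, had a processed signal of 18.4 there and was dim. The 4th instar CC-CA was at least 41.4-fold higher by that probe (adjusted p = 2.4e-05). Such a bound replaces a dim signal by the lowest signal well above background on its array, unless the dim signal itself is higher, before the fold is taken. Probe 316 had a processed signal of 239 on the same array and was well above background. With probe 316 the difference was 2.03 (adjusted p = 0.0131).

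On the 11 arrays where both probes were well above background, their difference stayed between 0.13 and 0.58 in log2, so they gave the same pattern elsewhere. With probe 316, JHE was -0.53 in the 5th instar CC-CA, -1.65 on both arrays of the 4th instar CC-CA, 0.21 in prothoracic gland, -1.40 in fat body and -3.68 in Malpighian tubule. The 2 probes with the _cds ending were far dimmer. Probe 34 was well above background in the 5th instar CC-CA (-5.74), on 1 of the 2 4th instar CC-CA arrays (-5.70), in prothoracic gland (-4.33) and in testis (-7.04), and probe 33 on no array. Prothoracic gland was thus the highest group by all 3 JHE probes that were detected.

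**Figure D2:**
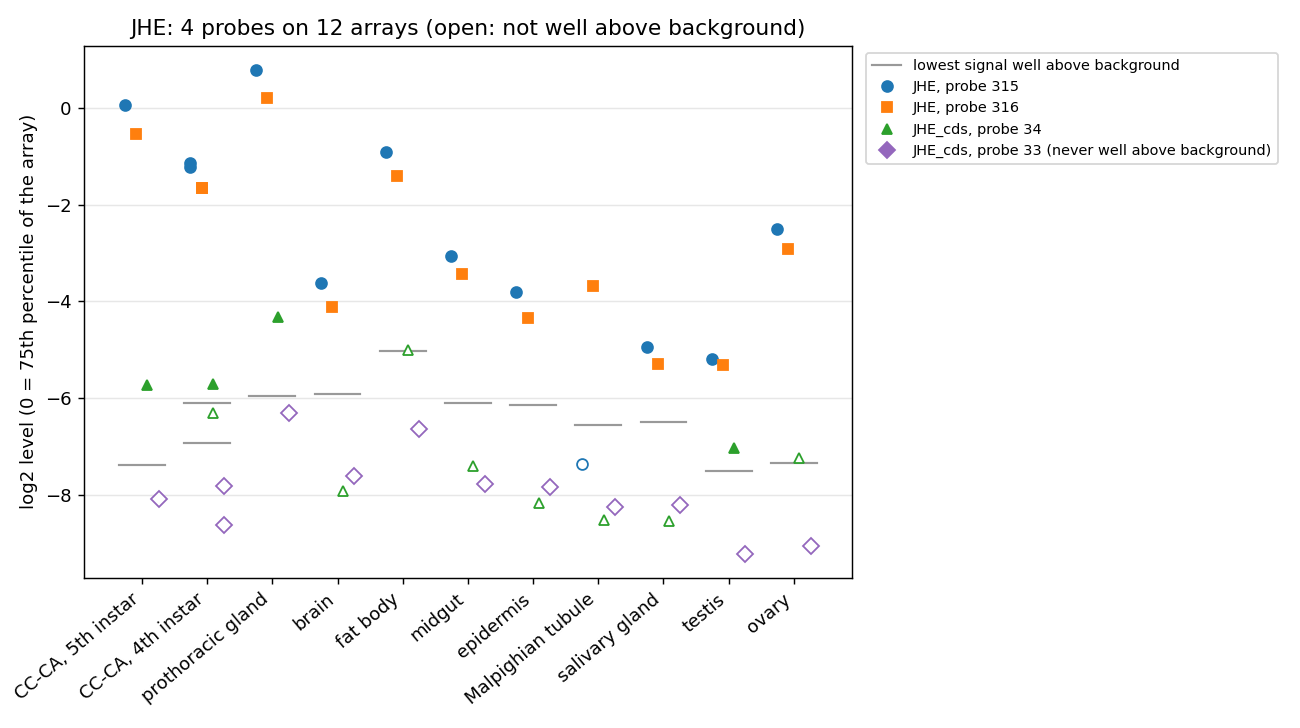
Log2 level of the 4 JHE probes by group, 1 symbol per array and probe; filled symbols are well above background, open symbols are dim, and grey lines are the lowest signal well above background on each array. Probes 315 and 316 run in parallel in every group except Malpighian tubule, where probe 315 is dim at -7.37 and probe 316 is at -3.68.

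In the order of groups for JHE, the neighbours at the top did not pass the test. Prothoracic gland exceeded the 5th instar CC-CA by 0.73 (adjusted p = 0.361) and fat body by 1.70 (adjusted p = 0.0767), and it exceeded each of the other 8 groups with adjusted p below 0.05. The share of all probe comparisons of prothoracic gland with the 10 other groups that passed was 17.9%. As the highest group was picked from these same values, this count describes the order. Of 7 marker genes of the CC-CA, brain, fat body and Malpighian tubule, 6 were dim on the prothoracic gland array, among them BmJHAMT at -8.00, AKH-1 at -7.96 and AKHR at -8.30. The exception was DHR at -4.42, which was well above background in 8 groups, and 38 of the 143 cuticular protein names were detected there, against 83 in epidermis. The part of these in the JHE level was not tested. AKHR, the fat body marker, was dim in the CC-CA too, at -9.05 in the 5th instar and -8.86 in the 4th instar. Of the 7 markers, however, 5 were well above background in the CC-CA of each stage. Besides the CC-CA's own BmJHAMT, AKH-1 and AKH-2 they included corazonin, highest in brain, at -1.19 in the 5th instar and -2.05 in the 4th. Of the 143 cuticular protein names, 68 were detected in the 5th instar CC-CA and 50 in the 4th. The part of these in the JHE level of the CC-CA was not tested either.

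JHE-r4A was bright in every tissue and highest in fat body and midgut. Its level was -0.60 in the 5th instar CC-CA and -0.47 and -0.50 in the 4th instar CC-CA. In tissues it was 1.92 in fat body, 1.69 in midgut, 1.15 in Malpighian tubule, 0.78 in salivary gland, 0.22 in epidermis, -0.05 in prothoracic gland, -0.20 in brain, -1.81 in ovary and -1.95 in testis. The gonads were thus lowest and the CC-CA of both stages came next above them. The 2 probes of JHE-r4A kept the order of fat body first and midgut second, and their difference varied between 0.18 and 0.63 over the 12 arrays.

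JHE-r4A was lower in the 4th instar CC-CA than in fat body (log2 difference -2.40 ± 0.48 SE, 5.29-fold, limma adjusted p = 0.00572), midgut (-2.17, 4.50-fold, adjusted p = 0.00929) and Malpighian tubule (-1.63, 3.09-fold, adjusted p = 0.0355). It was higher than in testis by 1.47 (2.76-fold, adjusted p = 0.0416). The Malpighian tubule call was also lost with quantile normalization (adjusted p = 0.0533), and the testis call with no filter on dim probes (0.0546) and with a floor under dim signals (0.0543). With the percentile taken over probes detected on all arrays, adjusted p was 0.0734 and 0.0748, and over the 9 alternatives with a test it ran from 0.000664 to 0.0734 for Malpighian tubule and from 0.00202 to 0.0748 for testis. Differences from prothoracic gland, brain, epidermis, salivary gland and ovary lay between -1.26 and 1.33 and did not pass. No step between neighbours in the order of the 11 groups passed. Fat body, the highest group, passed against 6 of the 10 others, where 26.8% of all probe comparisons of fat body passed. Midgut, Malpighian tubule, salivary gland and epidermis were the 4 against which it did not. Here too the highest group was picked from these same values, so the count describes the order.

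JHE-r5AL was set apart by midgut, an absorptive epithelium, and Malpighian tubule, an excretory one. It was -5.34 in the 5th instar CC-CA and -4.27 and -4.21 in the 4th instar CC-CA. Midgut stood at 1.84 and Malpighian tubule at 1.10, while epidermis was at -3.18, salivary gland at -3.66, prothoracic gland at -3.95, fat body at -4.50, testis at -5.54 and ovary at -5.89. Brain was dim at -7.49. No other group came near these 2 tissues, midgut and Malpighian tubule, which all 4 probes placed first and second.

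The 4th instar CC-CA was 67.8-fold lower than midgut (-6.08 ± 0.48, SE, limma adjusted p = 2.63e-05) and 40.7-fold lower than Malpighian tubule (-5.35, adjusted p = 5.36e-05). Midgut passed against 9 of the 10 other groups, where 25.1% of all probe comparisons of midgut passed. As midgut was picked as the highest group from these same values, this count describes the order. Midgut exceeded Malpighian tubule by 0.74, which did not pass (adjusted p = 0.636). The step between Malpighian tubule and epidermis, next in the order, was 4.29 (adjusted p = 0.000558), where 22.5% of all probes passed in that comparison. The 4th instar CC-CA was at least 3.18-fold higher than brain (adjusted p = 0.0013) and 3.13-fold higher than ovary (1.65, adjusted p = 0.0463). The ovary call was lost under 3 alternatives, at adjusted p = 0.0903 with quantile normalization, 0.0561 with no filter on dim probes and 0.0556 with the mean over probes, within a range from 0.0047 to 0.0903.

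**Figure D3:**
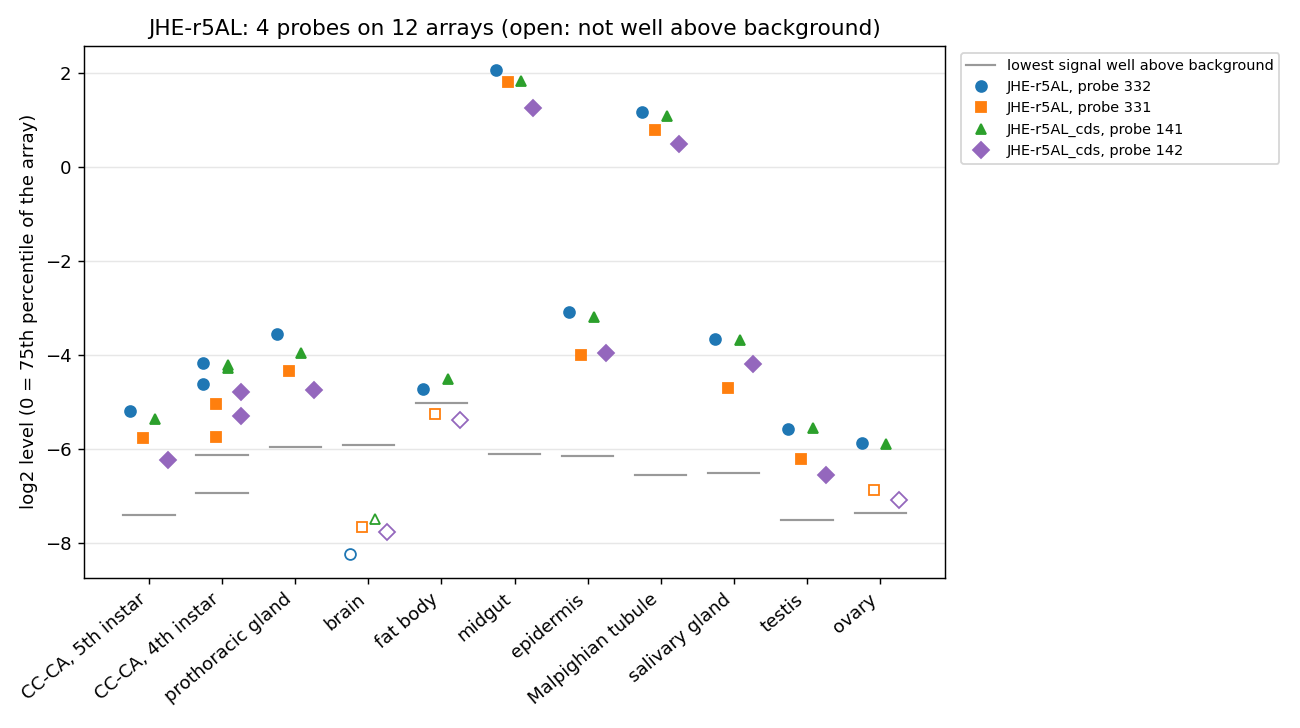
Log2 level of the 4 JHE-r5AL probes by group, 1 symbol per array and probe; filled symbols are well above background, open symbols are dim, and grey lines are the lowest signal well above background on each array. All 4 probes are above 0 in midgut and Malpighian tubule, and in every other group they lie below -3.

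JHE-r3 was faint and highest in fat body and epidermis. In the 5th instar CC-CA it was dim at -9.02, and in the 4th instar CC-CA it was dim on replicate 1 (-6.01) and well above background on replicate 2 (-6.31). It was -4.00 in fat body, -4.26 in epidermis, -4.98 in prothoracic gland, -5.42 in testis and -6.91 in ovary. Midgut (-6.92), brain (-7.94), Malpighian tubule (-8.47) and salivary gland (-8.54) were dim. The groups in which this esterase was detected therefore included fat body and both gonads, and neither midgut nor Malpighian tubule.

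By probe 965, the 4th instar CC-CA was at least 4.45-fold lower than fat body (-2.15, limma adjusted p = 0.011) and at least 3.73-fold lower than epidermis (-1.90, adjusted p = 0.0275). The fat body bound rests on this probe alone, as the others were dim in both groups. It also depends on the scaling, since the processed signals were 87.5 in fat body and 68.9 and 58.0 in the CC-CA. The 75th percentiles of these arrays were 1402, 4427 and 4589. For epidermis the other probes gave bounds of 2.75, 3.23 and 2.71. The epidermis call was lost with quantile normalization (adjusted p = 0.0691) and with a variance trend (adjusted p = 0.0641), in a range from 0.0124 to 0.0691. Differences from brain (1.78), Malpighian tubule (2.32, at least 1.32-fold) and salivary gland (2.38, at least 1.26-fold) passed as well, with adjusted p = 0.0327, 0.00728 and 0.00724. They rest on 1 CC-CA array above background against dim tissues, and none passed when dim signals were raised to a floor, where the brain difference turned to -0.24 (adjusted p = 0.847). Under that floor the Malpighian tubule difference was 0.40 and the salivary gland difference 0.34. Adjusted p over the 8 alternatives ran from 0.0185 to 0.847 for brain, from 0.00278 to 0.832 for Malpighian tubule and from 0.0018 to 0.915 for salivary gland.

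The probes of JHE-r3 disagreed in ovary. Probe 966 gave -5.46 there, its second-highest detected level after epidermis (-5.06), while probe 965 gave -6.91 and both _cds probes were dim. Epidermis and testis were detected by all 4 probes, prothoracic gland by 3 and fat body by 1. Both _cds probes were highest in fat body too, as dim signals, and relative to its 75th percentile the fat body array had the highest detection limit of all arrays (-5.02).

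**Figure D4:**
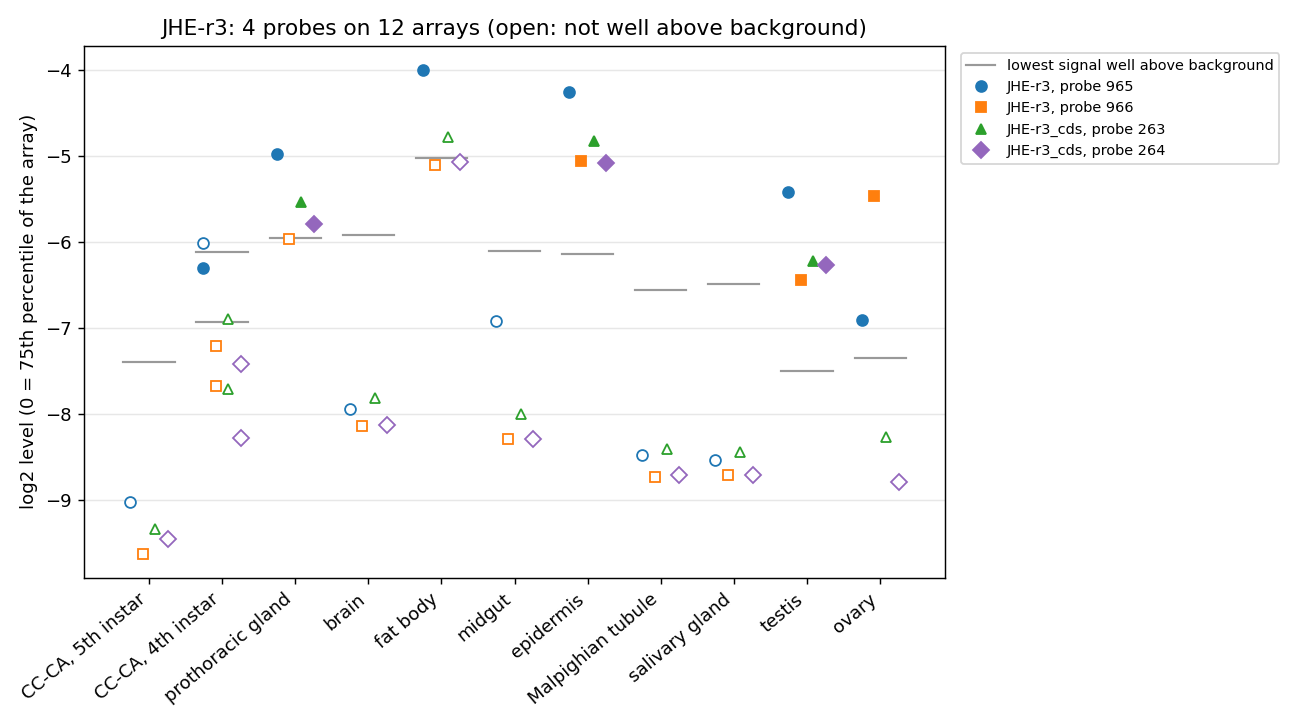
Log2 level of the 4 JHE-r3 probes by group, 1 symbol per array and probe; filled symbols are well above background, open symbols are dim, and grey lines are the lowest signal well above background on each array. Epidermis and testis are filled for all 4 probes, whereas in ovary probe 966 lies at -5.46 and probe 965 at -6.91.

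JHE-r1 was detected in salivary gland alone. Its 4 probes gave -4.90, -4.70, -4.75 and -4.82 there and were dim on the other 11 arrays. The representative probe was at least 3.06-fold lower in the 4th instar CC-CA than in salivary gland. Against fat body, where the detection limit relative to the 75th percentile was highest, salivary gland was at least 1.09-fold higher by this probe. JHE-r1 entered the fit through salivary gland alone, where it was bright, so these bounds are given as a description with no test.

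JHE-r2 was close to background throughout. Probe 968 was well above background in epidermis alone (-5.92) and probe 1002 in prothoracic gland alone (-5.66), and the remaining 2 probes on no array. The 2 detected probes thus named different tissues. With its representative probe, limma called no difference of JHE-r2 between the 4th instar CC-CA and the 9 tissues, and 2 of them, both between dim signals, had an unadjusted p below 0.05.

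Over the 6 esterases and 9 tissues, 21 of 54 differences between the 4th instar CC-CA and a tissue were called, 12 higher and 9 lower in the CC-CA, against 24.1% called among all probes tested in these comparisons. In 34 of the 54 at least 1 of the 2 groups was well above background on all its arrays, and 18 of these were called, 9 in each direction; the one for JHE-r1, against salivary gland, follows from how it entered the fit. Counted over the 19 probes of these names that were measured in some group, 60 of 171 differences were called. Each name enters with its representative probe and 1 CC-CA pair serves all 9 comparisons, so the difference in share was not tested. By tissue, 1 of 6 members was called against prothoracic gland (17.1% of all probes), 3 against brain (20.5%), 2 against fat body (27.2%), 3 against midgut (27.6%), 2 against epidermis (18.1%), 4 against Malpighian tubule (27.1%), 3 against salivary gland (23.7%), 2 against testis (37.6%) and 1 against ovary (18.4%). Against brain the 3 calls were higher in the 4th instar CC-CA, where all probes gave 4622 higher and 3197 lower. The 2 against testis were higher (all probes 7285 and 7030), and the 2 against fat body lower (4988 and 5373). The single calls were lower against prothoracic gland (5220 and 1275) and higher against ovary (4155 and 2856). The brain calls include JHE-r3, which turned round with a floor under dim signals.

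**Figure D5:**
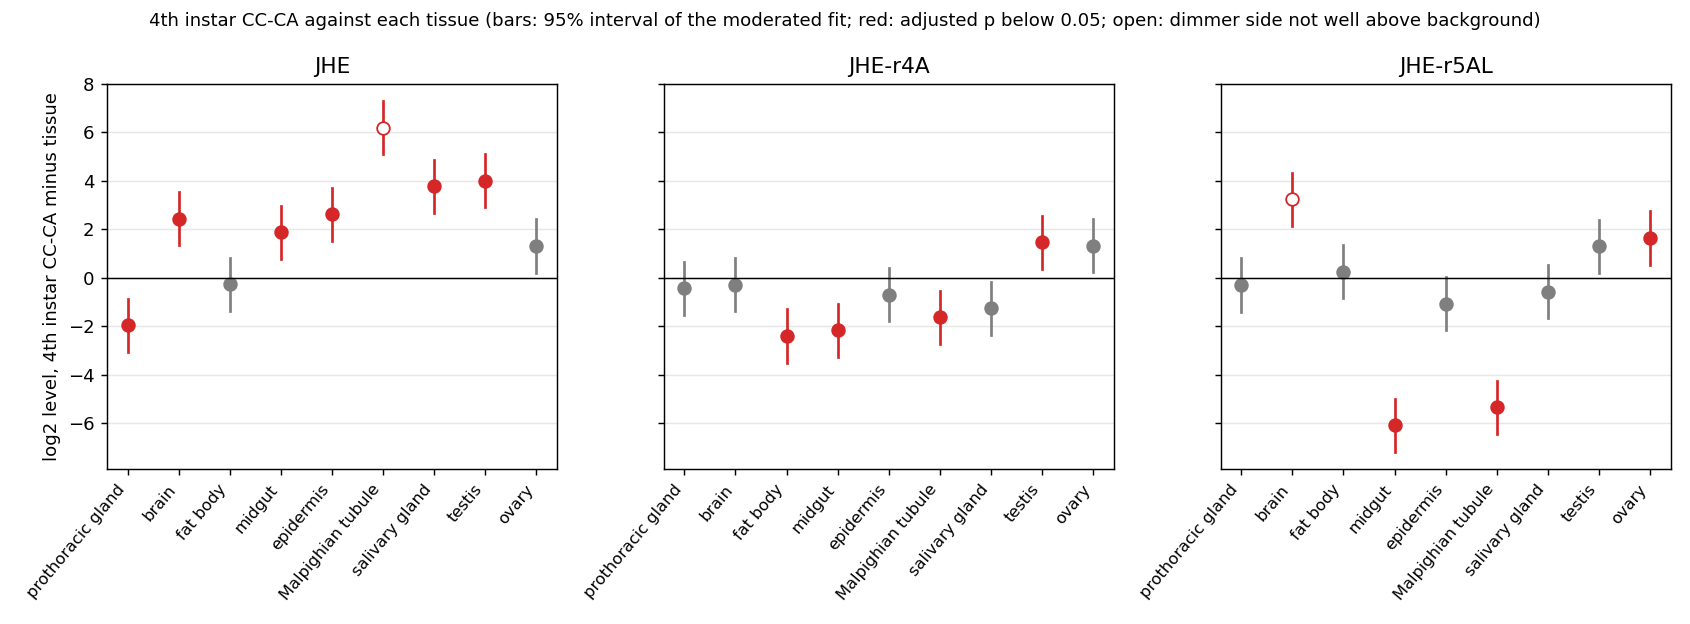
Difference in log2 level, 4th instar CC-CA (2 arrays) minus each tissue (1 array), for the 3 esterases measured in the CC-CA of both stages; points are the fitted differences, bars their 95% interval, red marks an adjusted p below 0.05 and open points a dim tissue. JHE is above 0 against 6 tissues in red and JHE-r5AL is near -6 against midgut.

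The question of stage was addressed by setting the single 5th instar CC-CA array (day 4) against the 4th instar pair (day 2). Of the 6 esterases, 3 were bright enough to be tested, and limma called none of them at an adjusted p below 0.05. An unadjusted p below 0.05 was found for 2. Of all 32105 probes tested, 10.5% were called and 8255 had an unadjusted p below 0.05. JHE was 0.05 in the 5th instar CC-CA, above both 4th instar values of -1.23 and -1.13. The difference was 1.23 ± 0.44 (SE; 2.35-fold, 95% interval from 0.28 to 2.19) and did not pass (limma adjusted p = 0.0997). It passed with the normexp background correction (adjusted p = 0.0279) and with a variance trend (adjusted p = 0.0498), in a range over the alternatives from 0.0279 to 0.376.

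JHE-r5AL was lower in the 5th instar array than in both 4th instar arrays, with a difference of -1.10 ± 0.44 (SE, 95% interval from -2.05 to -0.15, limma adjusted p = 0.138). JHE-r4A differed by -0.12, with an interval from -1.07 to 0.83 (adjusted p = 0.905). JHE-r3 was dim in the 5th instar and dim on 1 of 2 arrays in the 4th, so it was not tested; with no filter on dim probes its difference was -2.86 (limma adjusted p = 0.00699), against a dim 5th instar signal. Within the slide that held both stages, the direction of each of the 3 tested differences was the same.

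Other genes of juvenile hormone breakdown and transport were taken from 6 names that begin with JHEH (epoxide hydrolases) and 9 that begin with jhbp (binding proteins); a search for diol kinase names beginning with JHDK matched none. Of the 15 names 14 were measured in at least 1 group, and 12 were tested between the CC-CA stages. None was called higher in the 5th instar CC-CA and 5 were called lower, where 10.5% of all probes were called in either direction, 1113 higher and 2261 lower. These were jhbp-brp2095 (-4.50, limma adjusted p = 4.56e-05), jhbp-an0128 (-3.23, adjusted p = 0.00068), jhbp-brp1649 (-2.61, adjusted p = 0.00194), JHEH1 (-2.18) and jhbp-an0921 (-2.06). BmJHAMT was lower as well (-3.79, adjusted p = 0.000118), while BmKr-h1a, the transcription factor gene induced by juvenile hormone, differed by -0.66 (adjusted p = 0.384). The signals of JHEH1 and jhbp-an0921 were dim in the 5th instar, and both entered the stage fit through the 4th instar CC-CA alone. Their place among the 5 thus partly follows from how they entered, and their differences are a description with no test.

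Against tissues, the 14 breakdown and transport genes were called in both directions. In the 4th instar CC-CA, 6 were higher and 2 lower than in prothoracic gland (17.1% of all probes called), 6 and 0 for brain (20.5%), 4 and 4 for fat body (27.2%), 6 and 3 for midgut (27.6%) and 2 and 4 for epidermis (18.1%). The counts were 5 and 3 for Malpighian tubule (27.1%), 2 and 2 for salivary gland (23.7%), 4 and 2 for testis (37.6%) and 4 and 2 for ovary (18.4%). Among the genes of this list, 4 were highest in epidermis, 3 in midgut, 2 in fat body and 2 in salivary gland, and brain, prothoracic gland and testis had 1 each. JHEH4 was well above background in 2 groups, midgut (3.87) and Malpighian tubule (-1.35), which are also the 2 highest groups of JHE-r5AL.

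Likeness of pattern was measured by Pearson's r of log2 level over the 11 groups, with dim levels raised to a floor. It was taken against 288 names that carry a gene name, many of them cuticular proteins. The closest names below are the closest of this list only. The r values are descriptions over 11 groups that share arrays with 1 sample each, and the order rests on few bright groups. For JHE the closest were BNGR-A16, a neuropeptide receptor (0.760), BmorCPR106 (0.732) and BmorCPR22 (0.630), both cuticular proteins. The JHE levels used for r are those of probe 315, which lay at the floor in Malpighian tubule. Probe 316 was well above background in that tissue. JHE-r4A was closest to BmorCPR79 (0.912), BmKr-h1a (0.842) and BmorCPH8 (0.833). Of these, BmKr-h1a was well above background in 9 groups, BmorCPR79 in 3 and BmorCPH8 in 1. The floor differed between arrays, from -5.02 in fat body to -7.50 in testis, where JHE-r4A was also highest and lowest. The r of a name that is dim in most groups thus partly follows the floors. JHE-r5AL was closest to JHEH4 (0.912), followed by the receptors BNGR-A27 (0.674) and BNGR-A20 (0.667).

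For JHE-r3, which lay at the floor in 6 of 11 groups, the closest were BmorCPR128 (0.948), BmorCPG2 (0.921) and BNGR-A6-B (0.854). BmorCPR128 was well above background in 2 groups, BmorCPG2 in 4 and BNGR-A6-B in 1, so these r values rest largely on the floors. JHE-r1 and JHE-r2 lay at the floor in 10 of 11 groups, so their r reflects 1 group and the floor, with BmorCPR144 at 0.999 and BmorCPR129 at 0.992. Among the esterases themselves, JHE-r4A and JHE-r5AL had an r of 0.670, JHE and JHE-r5AL of -0.365 and JHE and JHE-r4A of -0.049. Both r values of JHE take its Malpighian tubule level from probe 315, a dim signal raised to the floor of -6.55. Probe 316 was at -3.68 there, and JHE-r5AL, at 1.10, was far above its level in most groups. The r values of JHE thus depend on the disputed Malpighian tubule spot, and r with probe 316 was not tested.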

How the data were processed

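The 12 arrays measured transcript levels. Per the file headers, Agilent Feature Extraction 9.5.3.1 made the deposited intensity values, subtracting background and giving dim spots a small positive surrogate, and no normalization between arrays was applied. The authors' deposited value table holds the same intensity divided by 1 constant per array, and the sources used here do not say what that constant is.

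From log2 of the processed intensity, the 75th percentile of the spots that are not controls was subtracted, array by array. Outlier spots were left out and spots of a probe averaged; 224 of 42564 probes were dropped. limma 3.58.1 (R 4.3.3) fitted 11 group means to 12 arrays, with 1 residual degree of freedom from the 4th instar CC-CA pair and a prior of 7.39 (tissue) or 11.4 (stage). Tissue comparisons used the probes that all arrays of some group marked as well above background, and the stage comparison those so marked in either stage. Python 3.11.15, pandas 2.3.3, numpy 2.4.6, scipy 1.17.1, matplotlib 3.10.9 and data.table version 1.17.8 were used. The fit was tested on simulated data.

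The named genes were all 6 members, and the 3 gene names most like each. The members and the gene lists were chosen with earlier results of these data known. The second JHE probe, the scan day, the filter that decides which names count as gene names, and the comparison of Malpighian tubule with epidermis were chosen after seeing the data. The normexp alternative used the median signal, since the scanner files hold no mean signal column. JHE matched 1 entry of the RefSeq gene table (symbol jhe1, assembly ASM3026992v2), and the 5 other names matched none. Array slides, scan day, background correction, normalization, filters, the probe that represents a gene and the moderation were varied.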

Additional observations from a re-analysis of the deposited data

How the results depend on the processing

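No paired analysis was possible because the groups compared share fewer than 2 replicate numbers. Of 502 recomputed values for 45 results on single esterases, 382 came with a test; of these, 329 kept their direction and side of the threshold, 21 passed where they had not, 27 no longer passed and 5 turned round. The other 120, which leave out an array or stay within a slide or scan day, have no test and kept their direction. The 5 were JHE-r4A between stages (0.17) and JHE-r3 against testis (0.31), both in the authors' value table, JHE-r5AL against fat body with normexp (-0.49) and with quantile normalization (-0.32), and JHE-r3 against brain with a floor under dim signals (-0.24). The 17 differences between 2 dim groups that were not called were left out of these counts, a choice made after seeing the values; 14 of their 136 recomputed values turned round. The count called higher in the 4th instar CC-CA, 12, became 7 with quantile normalization, 6 with the mean over the probes of a name and 2 with only probes detected on all arrays; the count called lower, 9, became 4 with the last. The number of esterases called between stages, 0, became 1 with normexp and with a variance trend (JHE in both) and 1 with no filter (JHE-r3), and the number of all probes called, 3374, became 2072 with quantile normalization, 2178 with no filter and 5389 with a variance trend (8255 had an unadjusted p under 0.05). The cause was not tested. The median of all probes moved by up to 1.23 (4th instar CC-CA minus testis) in the value table, against 0.19 in the main scaling. Leaving out either 4th instar CC-CA array moved no difference by more than 0.43 and turned none of 40 round, as values with no test, since no residual degree of freedom is left; a slide block leaves none either, and its values equal those within a slide. With 1 array for most groups, the smallest difference of an esterase that passed was 1.47 on the log2 scale.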
